A study of Mus musculus with 16 samples.

Results

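The polycomb repressive complex 2 (PRC2) genes examined here were 10 in number, Ezh2, Ezh1, Eed, Suz12, Rbbp4, Rbbp7, Jarid2, Aebp2, Mtf2 and Phf19. They were chosen by name as the catalytic, core and accessory subunits of the complex, out of 55421 genes in the files, and all 10 were found in GENCODE release M21 (GRCm38) and passed the filter on low counts, as did 18150 genes in all. RNA-seq had been carried out on female F1 hybrid (129/Sv:Cast/Ei) mouse ESCs that carry a doxycycline-responsive promoter at the endogenous Xist gene on the Cast X chromosome. Wt and Spen-/- ESCs, the latter with the complete Spen open reading frame removed by CRISPR/Cas9, were compared in 4 conditions with 2 biological replicates each, giving 16 libraries. These were undifferentiated cells (day 0) without doxycycline (dox), day 0 after 4 days of dox at 2 µg/mL, and day 3 of monolayer differentiation without dox. The remaining condition was day 7 of differentiation with dox, also at 2 µg/mL and begun 4 days before day 0. Cells given dox were sorted for dsRed, so with and without dox also means sorted and unsorted, and the day 7 groups differ from the day 3 groups in dox as well as in time. Whether replicates came from separate clones was not given in the sources used here, so p-values measure the spread between these libraries, which may be technical. The ESCs were kept on feeder fibroblasts before differentiation.

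As background, PRC2 places methyl groups on lysine 27 of histone H3, a mark of silent genes that also builds up on the inactive X chromosome after Xist is expressed. EZH2 and EZH1 are alternative catalytic subunits, EED binds the methylated histone tail and stimulates the enzyme, SUZ12 holds the complex together, and RBBP4 and RBBP7 are histone chaperones that PRC2 shares with other chromatin complexes. MTF2 and PHF19 are Polycomb-like proteins that help the complex bind CpG-rich DNA, whereas JARID2 and AEBP2 define the other form of the complex. ESCs without PRC2 keep renewing but differentiate poorly.

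The number of reads counted on genes ranged from 7571566 to 14822867 per library (median 9634647.5), and 13.0% to 15.3% of them were assigned to an allele. Spen, the deleted gene, had 16.2 to 43.5 CPM (reads scaled to library size, with TMM factors) in Wt libraries and 0.129 to 5.45 in Spen-/- libraries. The Spen-/- libraries of day 7 stood apart. They detected 15324 and 14969 genes, the fewest of all libraries, against up to 23458 elsewhere, and their replicates had the lowest correlation of log2 CPM (0.873, against 0.918 to 0.976 in the other groups). Of 8 pluripotency markers, the summed level was 155 to 163 CPM in Wt and 637 to 725 CPM in Spen-/- cells at day 7, from 1338 to 2313 CPM over all day 0 libraries, and all 8 markers were above 0 in every library. Of 11 differentiation markers the sum was 369 to 427 CPM in Wt and 55.2 to 64.0 CPM in Spen-/- cells at day 7. There Gata4, Foxa2, T, Mesp1 and Sox1 were at 0 in both Spen-/- libraries. Most of these zeros were not particular to that group. Sox1 was at 0 in both Wt day 7 libraries too and in 15 of 16 libraries. Mesp1 was at 0 in 12 libraries, Gata4 in 9, Foxa2 in 8 and T in 2. Gata6, at most 5.79 CPM in any library, was not at 0 in both Spen-/- libraries of day 7. Fibroblast markers (8 genes) summed to 12.8 to 151 CPM over all libraries, and at day 7 to 98.1 to 131 CPM in Wt and 50.2 to 102 CPM in Spen-/- cells, and the 4 Y-linked genes, which mark the male feeders, to at most 18.1 CPM. In bulk RNA, fewer cells of a type and less RNA per cell cannot be told apart.

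Rbbp7 was by far the most abundant PRC2 transcript and Ezh1 the least abundant on average. Levels were compared between genes as CPM per kb of exon (union of all exons). Averaged over 16 libraries, Rbbp7 had 852 CPM per kb, followed by Eed (93.4), Mtf2 (54.5), Rbbp4 (30.8), Jarid2 (28.7), Suz12 (24.3), Ezh2 (15.0), Phf19 (5.95), Aebp2 (4.88) and Ezh1 (4.21). The order in the middle depended on the length used. Per kb of the longest transcript Ezh2 had 36.0 CPM and ranked above Jarid2 (33.3) and Suz12 (27.5), while Rbbp7, Eed, Mtf2 and Rbbp4 still led and Ezh1 was still last. In Wt cells at day 0 without dox the libraries spanned 504 to 630.0 CPM per kb for Rbbp7, 127 to 138 for Eed and 61.1 to 90.3 for Mtf2, with no overlap between these neighbours. The next genes, Suz12 (20.8 to 58.2), Jarid2 (37.3 to 38.5) and Rbbp4 (32.6 to 40.6), overlapped one another, as did Phf19 (5.75 to 11.3), Aebp2 (4.46 to 9.13) and Ezh1 (3.25 to 5.93). Ezh2 (11.6 to 24.7) lay between them, overlapping Suz12. At day 7 Eed (32.1 to 44.6) and Mtf2 (36.1 to 39.6) overlapped in Wt cells, while in Spen-/- cells Eed (95.6 to 117) stayed above Mtf2 (41.1 to 53.1). Phf19, at 0.434 and 0.923 CPM per kb, was the lowest of the 10 in Spen-/- cells at day 7, next to Ezh1 with a mean of 1.17. Rbbp4 and Rbbp7 were the members with most 50-base words, the read length, found also in transcripts of other genes (17.2% and 11.2%), and Jarid2 and Phf19 had none. Genes overlapping Mtf2 (Tmed5), Rbbp4 (Sync), Rbbp7 (Txlng), Phf19 (Gm13448) and Eed (E230029C05Rik) are annotated, and whether reads were counted by strand was not given in the sources used here.

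**Figure D1:**
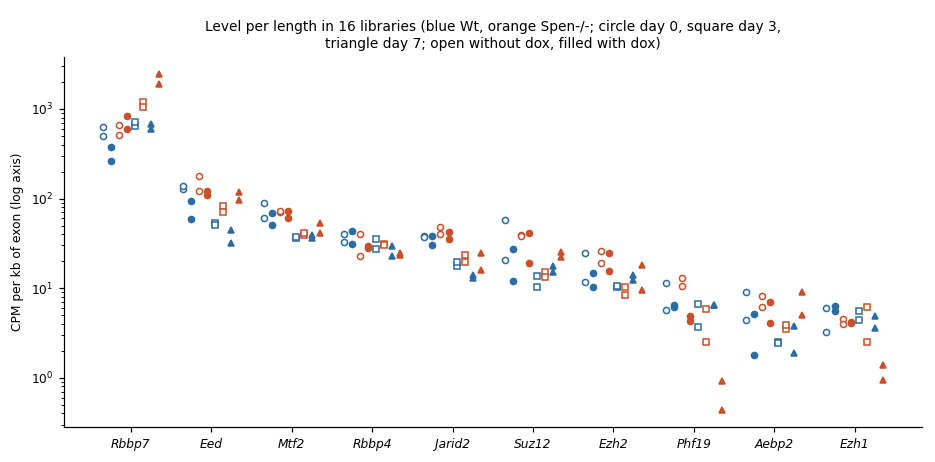
CPM per kb of exon (log axis) of the 10 PRC2 genes in each of 16 libraries, ordered by their mean. Blue is Wt and orange Spen-/-, circles are day 0, squares day 3 and triangles day 7, open symbols are without and filled with dox. Rbbp7 lies above all other members in every library, and the Spen-/- day 7 triangles are the highest for Rbbp7 and the lowest for Phf19 and Ezh1.

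The members differ in what lies upstream of them. RefSeq promoter windows (GRCm38.p6) were matched for all 10 members, with 14 annotated starts, and the 250 bases before each start were searched on both strands for CCAAT and for GGGCGG, the letters of the CCAAT box and the GC box, overlaps allowed. CCAAT was found in 7 and GGGCGG in 9 of the 14 windows, against 33.8% and 32.7% of the 32851 windows of the table. Shown here as examples are Eed, the first start of Mtf2, and Rbbp7. In the tests below, Eed and Mtf2 passed as lower at day 3 in Wt cells and over both genotypes. Rbbp7 passed as higher at day 7 in each genotype. Counts are per gene, so no change is assigned to a single start. Capitals mark both motifs in either orientation (ATTGG and CCGCCC on the other strand).
Eed (chr7:89980977-89981226, minus strand): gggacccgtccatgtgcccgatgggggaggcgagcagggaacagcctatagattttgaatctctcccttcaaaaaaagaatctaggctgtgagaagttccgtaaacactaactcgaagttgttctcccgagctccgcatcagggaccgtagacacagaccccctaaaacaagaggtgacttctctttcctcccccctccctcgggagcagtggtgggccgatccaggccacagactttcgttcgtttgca
Mtf2 (chr5:108065424-108065673, plus strand): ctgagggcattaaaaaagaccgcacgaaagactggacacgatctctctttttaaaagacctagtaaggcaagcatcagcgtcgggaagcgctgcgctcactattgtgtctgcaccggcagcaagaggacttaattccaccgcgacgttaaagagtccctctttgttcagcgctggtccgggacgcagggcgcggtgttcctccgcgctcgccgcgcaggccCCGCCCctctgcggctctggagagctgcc
Rbbp7 (chrX:162760122-162760371, plus strand): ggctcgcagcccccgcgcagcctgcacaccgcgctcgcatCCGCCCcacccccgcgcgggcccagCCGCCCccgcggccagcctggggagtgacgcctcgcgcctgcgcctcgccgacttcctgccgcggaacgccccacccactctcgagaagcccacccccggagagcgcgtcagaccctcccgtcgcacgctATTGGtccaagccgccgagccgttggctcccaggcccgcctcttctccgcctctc
The Eed window held neither motif and 12 CpG dinucleotides, that of Mtf2 held 1 GC box and 23 CpGs, and that of Rbbp7 held 1 CCAAT box, 2 GC boxes and 34 CpGs, against a median of 6 CpGs over all windows. Suz12, which passed as lower at day 3 only over both genotypes, had 1 CCAAT box, 3 GC boxes and 37 CpGs. Jarid2, lower at day 3 as well, had 23 and 22 CpGs in its windows. Whether motifs or CpGs go with the direction of change was not tested.

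From day 0 to day 3 without dox, 8 of 10 PRC2 transcripts had lower values in both genotypes, a count that includes values that did not pass. The share of all genes with lower values in both genotypes was not counted. Those of the core and accessory subunits Eed, Jarid2 and Mtf2 passed the test in Wt cells. In Wt cells 3 of 10 members passed, all lower (edgeR quasi-likelihood test on counts of 16 libraries, adjusted p under 0.05), where 1.38% of all genes passed in either direction and 0.953% were lower. The median log2 fold change of the 10 members was -0.92, against 0.01 over all 18150 genes tested. In Spen-/- cells only Jarid2 passed (lower), against 1.23% of all genes and 0.656% lower, with a median of -0.97 for the members and 0 for all genes. Over the mean of both genotypes 5 of 10 passed, Eed, Suz12, Jarid2 and Mtf2 lower and Rbbp7 higher, against 6.34% of all genes (3.48% lower, 2.87% higher), with a median of -1.04 for the members and 0.04 for all genes. In the same libraries 4 of 8 pluripotency markers passed in Wt and 4 of 8 in Spen-/- cells, all lower, and the part of such cells in the PRC2 values was not tested.

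Eed (ENSMUSG00000030619, chromosome 7, 89954654 to 89980983), the reader of the mark, fell the most among the members called in Wt. It had 487 and 528 CPM in the Wt replicates at day 0 and 202 and 195 CPM at day 3, and 469 and 679.6 against 313 and 269 CPM in Spen-/- cells. The day 3 libraries were below the day 0 libraries in both genotypes without overlap. Groups of 2 libraries can separate without a change, and how many of all genes did so was not counted. Remarks on overlap between groups, here and below, therefore only describe the values. The log2 fold change was -1.35 ± 0.26 (SE) in Wt (adjusted p = 0.0274 with edgeR), a 2.55-fold decrease, and -0.98 ± 0.26 in Spen-/- cells (adjusted p = 0.100). Suz12 (ENSMUSG00000017548, chromosome 11, 79993106 to 80034123), the scaffold, had 103 and 288 CPM in Wt at day 0 and 51.3 and 67.3 at day 3, and 195 and 188 against 74.0 and 66.1 CPM in Spen-/- cells. Its groups did not overlap, but the Wt day 0 replicates lay far apart, and the log2 fold changes of -1.72 ± 0.50 and -1.45 ± 0.50 missed the threshold (adjusted p = 0.133 and 0.222 with edgeR). Over both genotypes Suz12 fell by 1.59 ± 0.35 on the log2 scale (adjusted p = 0.0200).

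Jarid2 and Mtf2, which belong to the 2 different forms of PRC2, both fell in Wt cells. Jarid2 (ENSMUSG00000038518, chromosome 13, 44729474 to 44921643) had 374 and 363 CPM in Wt at day 0 and 171 and 189 at day 3, and 465 and 394 against 191 and 226 CPM in Spen-/- cells. Each day 3 value lay below every day 0 value. The log2 fold changes were -1.03 ± 0.22 (adjusted p = 0.0469 with edgeR) and -1.04 ± 0.22 (adjusted p = 0.0486). Mtf2 (ENSMUSG00000029267, chromosome 5, 108065674 to 108109004) went from 348 and 515 to 204 and 211 CPM in Wt and from 408 and 419 to 221 and 235 CPM in Spen-/- cells, again without overlap. Its log2 fold changes were -1.05 ± 0.23 (adjusted p = 0.0456 with edgeR) and -0.86 ± 0.22 (adjusted p = 0.104). Aebp2 (ENSMUSG00000030232, chromosome 6, 140622663 to 140678472), the partner of Jarid2, had 44.0 and 89.9 against 24.8 and 24.0 CPM in Wt (log2 -1.45 ± 0.55, adjusted p = 0.265) and Phf19 (ENSMUSG00000026873, chromosome 2, 34893757 to 34914026), the relative of Mtf2, 56.9 and 29.0 against 18.5 and 33.2 CPM, with overlap (log2 -0.73 ± 0.51, adjusted p = 0.563). Aebp2 in Spen-/- cells had 60.9 and 80.1 against 34.2 and 38.2 CPM (log2 -0.96 ± 0.54, adjusted p = 0.466 with edgeR). Phf19 had 65.7 and 52.7 against 12.6 and 29.3 CPM there (log2 -1.50 ± 0.52, adjusted p = 0.226), and neither gene's groups overlapped in Spen-/- cells.

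The catalytic subunits did not pass the test at day 3 with edgeR. Ezh2 (ENSMUSG00000029687, chromosome 6, 47530139 to 47595341) had 77.8 and 165 CPM in Wt at day 0 and 68.4 and 70.5 at day 3, and 128 and 175 against 55.5 and 69.7 CPM in Spen-/- cells. The day 3 libraries were the lower ones in both genotypes, by a log2 fold change of -0.80 (95% interval -1.68 to 0.07, adjusted p = 0.418 with edgeR) and -1.27 (-2.15 to -0.39, adjusted p = 0.187), and by -1.04 ± 0.28 over both (adjusted p = 0.0526). With DESeq2 Ezh2 passed as lower in Spen-/- cells (adjusted p = 0.0360) and over both genotypes (adjusted p = 0.00573), and Ezh1 in neither. Ezh1 (ENSMUSG00000006920, chromosome 11, 101191115 to 101226463) had 44.1 and 24.2 against 41.8 and 33.2 CPM in Wt and 33.7 and 29.7 against 18.8 and 45.3 CPM in Spen-/- cells, so the groups overlapped (log2 0.13, interval -0.85 to 1.12, and 0.02 ± 0.45). Rbbp4 (ENSMUSG00000057236, chromosome 4, 129307100 to 129335370) had 285 and 355 against 309 and 239.9 CPM in Wt, a log2 fold change of -0.22 (-0.81 to 0.37). Rbbp7 (ENSMUSG00000031353, X chromosome, 162760402 to 162779092) had 1466 and 1833 against 1901 and 2103 CPM in Wt and 1473 and 1907 against 3479 and 3038 CPM in Spen-/- cells. The day 3 values were the higher ones, by a log2 fold change of 0.28 ± 0.23 (adjusted p = 0.647) and 0.95 ± 0.23 (adjusted p = 0.0828 with edgeR), and Rbbp7 rose by 0.61 ± 0.16 over both genotypes (adjusted p = 0.0467).

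These calls were close to the threshold, and the tool and settings moved them both ways. With DESeq2 6 members passed in Spen-/- cells (Ezh2, Eed, Suz12, Jarid2 and Mtf2 lower, Rbbp7 higher), and there were 5 without the filter on low counts and 4 with a block on crossed replicate numbers, an alternative chosen after seeing the data, while over both genotypes DESeq2 called 8. In Wt no member passed without Wt day 0 replicate 2 or without either day 3 library (3 without Wt day 0 replicate 1), none of the 10 passed in Spen-/- cells whichever of their 4 libraries was left out, and none passed in either genotype when only the 4 compared libraries were fitted. Over both genotypes Eed, Jarid2 and Mtf2 passed in each of 13 alternatives (highest adjusted p = 0.0243, 0.0263 and 0.0339 with edgeR or DESeq2), while Suz12 passed in 8 and Rbbp7 in 6 of 13.

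**Figure D2:**
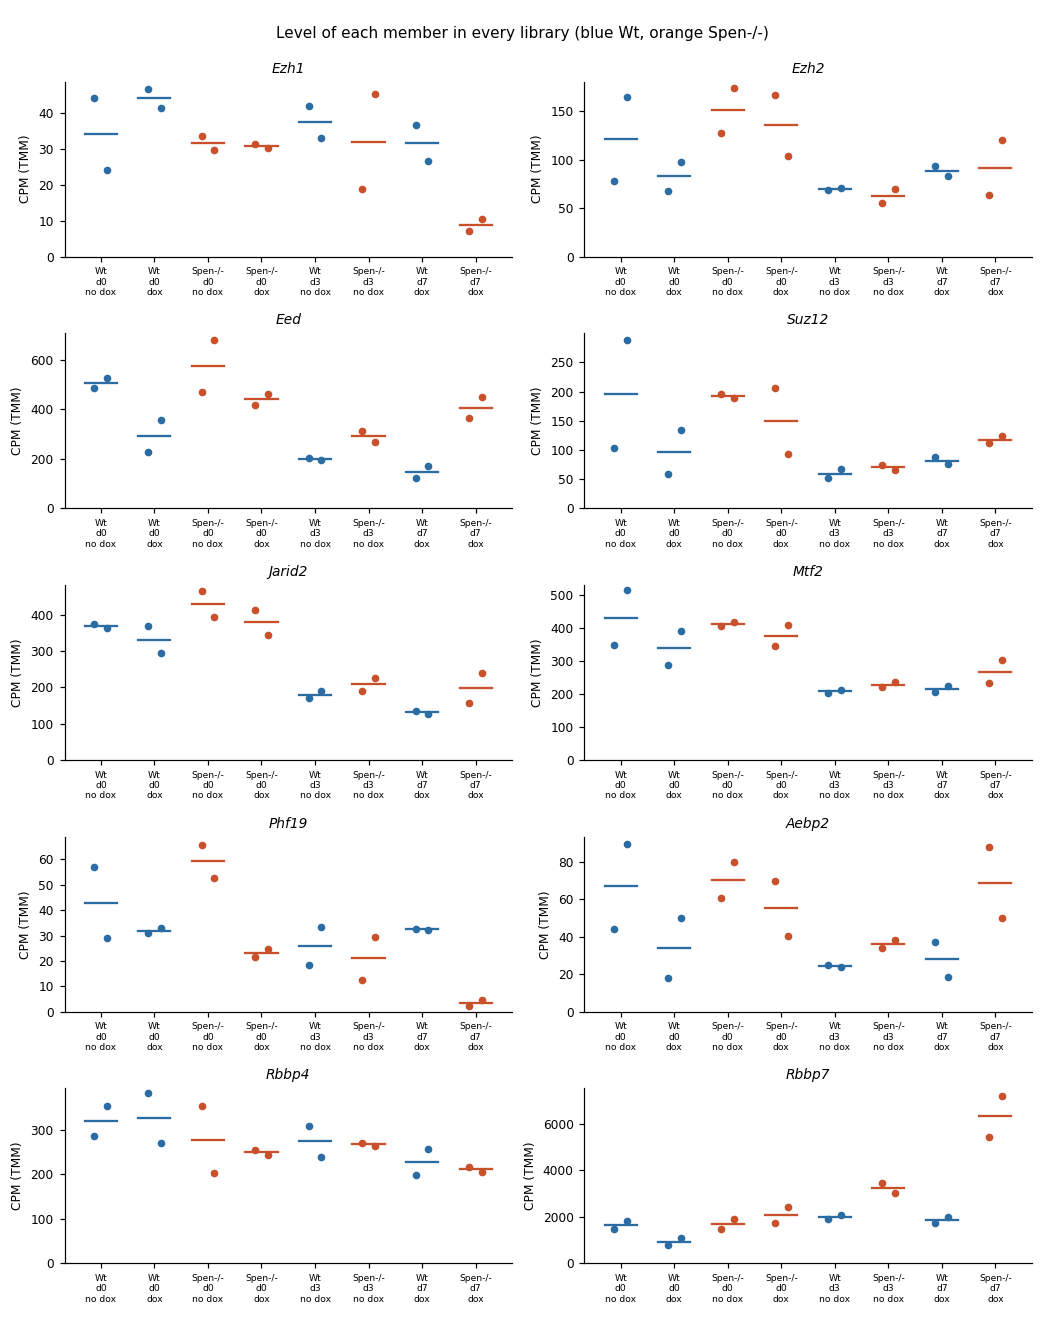
CPM (with TMM scaling) of each PRC2 gene in the 8 groups, points being libraries and lines group means, blue for Wt and orange for Spen-/-. Eed, Jarid2 and Mtf2 are lower at day 3 than at day 0 without dox in both libraries of each genotype, and Rbbp7 is highest in the Spen-/- day 7 libraries, at 5463 and 7212 CPM.

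From day 0 to day 7 with dox, Jarid2 fell and Rbbp7 rose in both genotypes, Eed passed the test in Wt cells and Phf19 and Ezh1 in Spen-/- cells. In Wt 3 of 10 members passed, 1 higher and 2 lower, against 4.57% of all genes (1.48% higher, 3.09% lower), with a median log2 fold change of -0.38 for the members and -0.00 for all genes. In Spen-/- cells 4 passed, 1 higher and 3 lower, against 8.33% of all genes (3.36% higher, 4.98% lower), with medians of -0.42 and -0.05. Over both genotypes 5 passed, Rbbp7 higher and Ezh1, Jarid2, Mtf2 and Phf19 lower, against 14.4% of all genes (5.37% higher, 9.03% lower).

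Jarid2 had 369 and 295 CPM in Wt at day 0 with dox and 136 and 127 at day 7, and 414 and 344 against 157 and 239.8 CPM in Spen-/- cells. The groups did not overlap in either genotype, and the log2 fold changes were -1.33 ± 0.23 (adjusted p = 0.00513 with edgeR) and -0.94 ± 0.22 (adjusted p = 0.0244). Eed went from 229 and 355 to 123 and 171 CPM in Wt, without overlap (log2 -0.99 ± 0.26, adjusted p = 0.0489 with edgeR). In Spen-/- cells the day 0 libraries had 419 and 464 CPM and the day 7 libraries 366 and 448 CPM, which overlapped (log2 -0.12, 95% interval -0.67 to 0.43). Mtf2 had 289.6 and 392 against 205 and 225 CPM in Wt and 344 and 411 against 234 and 302 CPM in Spen-/- cells. It passed only over the mean of both genotypes (log2 -0.58 ± 0.16, adjusted p = 0.0310 with edgeR).

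Phf19 and Ezh1 were low in the Spen-/- day 7 libraries. Phf19 had 21.6 and 24.6 CPM in Spen-/- cells given dox at day 0, and by day 7 it had 2.19 and 4.65 CPM, with 17 reads in the lowest library. The log2 fold change was -2.75 ± 0.56 (adjusted p = 0.0111 with edgeR), a 6.72-fold decrease, whereas in Wt cells the 4 values were 30.9, 32.9, 32.5 and 32.4 CPM (log2 0.02, 95% interval -1.08 to 1.13). Ezh1, the catalytic subunit that prevails in non-dividing cells, had 31.5 and 30.2 CPM in the Spen-/- libraries of day 0 and 7.07 and 10.3 CPM in those of day 7 (log2 -1.82 ± 0.47, adjusted p = 0.0350 with edgeR). In Wt cells it had 46.7 and 41.5 against 36.8 and 26.6 CPM (log2 -0.48 ± 0.45, adjusted p = 0.668). Both genes were low in the libraries in which the fewest genes were detected, and the part of this in their values was not tested. Ezh2, in contrast, had 63.4 and 120.0 CPM in Spen-/- and 94.0 and 83.1 CPM in Wt cells at day 7, with overlap.

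Rbbp7 rose from 768 and 1097 to 1755 and 1999 CPM in Wt (log2 1.01 ± 0.23, adjusted p = 0.0302 with edgeR, 2.01-fold) and from 1739 and 2419.6 to 5463 and 7212 CPM in Spen-/- cells (log2 1.61 ± 0.24, adjusted p = 0.00227, 3.05-fold). Neither pair of groups overlapped. Without 1 library, between 0 (without either Wt day 7 library), 1 (without Wt day 0 replicate 1) and 2 members (without Wt day 0 replicate 2) passed in Wt, and 2 (without replicate 1 of either Spen-/- group) or 3 (without replicate 2 of either) in Spen-/- cells. With only the 4 compared libraries Jarid2 alone passed in Wt and no member in Spen-/- cells, while over both genotypes Jarid2 and Rbbp7 passed in each of 13 alternatives.

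Between Spen-/- and Wt cells, PRC2 transcripts passed the test at day 7 alone among the single conditions. No member passed at day 0 without dox, at day 0 with dox or at day 3 with edgeR (0, 2 and 1 members at an unadjusted p under 0.05, and 0, 1 and 0 with DESeq2), where 0.0%, 0.0826% and 0.0% of all genes passed. At day 7, 4 of 10 passed, Eed and Rbbp7 higher and Ezh1 and Phf19 lower in Spen-/- cells, against 7.11% of all genes (3.1% higher, 4.01% lower), with a median log2 fold change of 0.43 for the members and -0.14 for all genes.

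At day 7 Eed had 366 and 448 CPM in Spen-/- cells against 123 and 171 in Wt (log2 1.47 ± 0.26, adjusted p = 0.00492 with edgeR, 2.77-fold higher). Rbbp7 had 5463 and 7212 against 1755 and 1999 CPM (log2 1.76 ± 0.24, adjusted p = 0.00109 with edgeR, 3.38-fold higher). Rbbp7 is X-linked, and 124 of the 715 X-linked genes tested passed here in either direction. The median X-linked gene had a log2 fold change of 0.53, and 142 X-linked genes lay above Rbbp7. Phf19 had 2.19 and 4.65 against 32.5 and 32.4 CPM (log2 -3.24 ± 0.57, adjusted p = 0.00484, 9.43-fold lower) and Ezh1 7.07 and 10.3 against 36.8 and 26.6 CPM (log2 -1.86 ± 0.47, adjusted p = 0.0348, 3.63-fold lower). None of these 4 pairs of groups overlapped. The 4 genes were picked by the test on these same libraries, so this adds no support. Jarid2 (log2 0.59 ± 0.22, adjusted p = 0.138) and Aebp2 (1.30 ± 0.55, adjusted p = 0.179), the partners in 1 form of the complex, had higher values in Spen-/- cells without passing, and Ezh2 (0.05, 95% interval -0.82 to 0.92) and Rbbp4 (-0.11, -0.70 to 0.48) did not pass. In the same comparison 7 of 8 pluripotency markers passed, 6 of them higher in Spen-/- cells, among them Zfp42 by 4.02 ± 0.23 on the log2 scale (adjusted p = 5.9e-06), and the part of this in the PRC2 values was not tested.

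Without 1 library, 2 (without Wt day 7 replicate 1), 3 (without replicate 2 of either group) or 4 members (without Spen-/- day 7 replicate 1) passed at day 7, and none when only these 4 libraries were fitted (lowest adjusted p = 0.0677). Averaged over the 4 conditions, 2 of 10 members passed, Eed (log2 0.70 ± 0.13, adjusted p = 0.0107 with edgeR) and Rbbp7 (0.91 ± 0.12, adjusted p = 0.00145), both higher in Spen-/- cells, against 4.91% of all genes and 2.19% higher. Of the 715 X-linked genes 99 passed there, with a median log2 fold change of 0.32. With the day 7 libraries left out, an alternative chosen after seeing the data, the values were 0.45 for Eed (adjusted p = 0.251 with edgeR) and 0.64 for Rbbp7 (adjusted p = 0.134). Neither gene passed without day 7, in a fit of fewer libraries, and both values stayed above those of Wt.

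**Figure D3:**
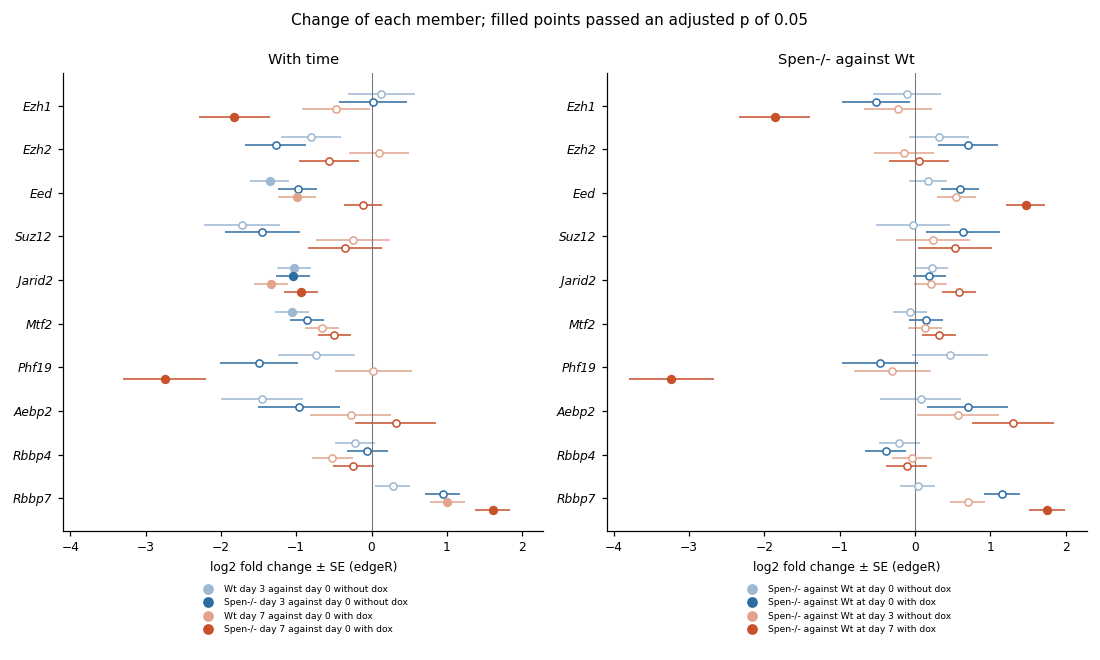
Log2 fold change with its standard error (edgeR) of each PRC2 gene with time (left) and between genotypes (right), filled points having an adjusted p under 0.05. Jarid2 is filled in all 4 comparisons with time, and in the genotype panel the 4 filled points, Ezh1, Eed, Phf19 and Rbbp7, are all at day 7.

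Whether the changes with time or dox differed between genotypes was tested directly. No member passed for the day 3, day 7 or dox effect with edgeR, with 0, 2 and 1 members at an unadjusted p under 0.05 and 0, 1 and 0 with DESeq2, and 0.0%, 2.01% and 0.0% of all genes passed. For Phf19 the day 7 effect of Spen-/- minus that of Wt was -2.77 ± 0.74 on the log2 scale (adjusted p = 0.0924 with edgeR, 0.00896 with DESeq2, and 0.0453 without Spen-/- day 7 replicate 2), and that on Eed higher by 0.88 ± 0.36 (adjusted p = 0.302). A difference in the time course of these genes between genotypes was therefore not shown at the threshold with edgeR.

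Dox at day 0 was followed by no member passing the test in Wt or Spen-/- cells with edgeR (2 and 1 at an unadjusted p under 0.05, 1 and 0 with DESeq2), where 0.149% and 0.0716% of all genes passed. Rbbp7 had the smallest p in Wt, with 1466 and 1833 CPM without and 768 and 1097 CPM with dox, groups that did not overlap (log2 -0.82 ± 0.23, unadjusted p = 0.00415, adjusted p = 0.333 with edgeR and 0.0400 with DESeq2). In Spen-/- cells it had 1473 and 1907 without and 1739 and 2419.6 CPM with dox, which overlapped (log2 0.30 ± 0.23). The difference between these effects was 1.12 ± 0.33 on the log2 scale (unadjusted p = 0.00510, adjusted p = 0.723 with edgeR). At day 0 with dox Rbbp7 was above Wt in Spen-/- cells by 1.16 ± 0.23 (adjusted p = 0.129 with edgeR, 5.16e-04 with DESeq2 and 0.0326 with a replicate block). For comparison, the median X-linked gene (715 tested) had log2 fold changes of -0.52 in Wt and 0 in Spen-/- cells with dox, and 265 of the other X-linked genes were below Rbbp7 in Wt. Sorting and dox cannot be told apart here.

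Rbbp7 is the only member on the X chromosome, and few of its reads came from the Cast allele, on the X from which dox induces Xist, in Wt cells at day 7. Of the allele-specific reads, 3 of 37 and 2 of 39 came from Cast in the Wt replicates, shares of 0.0811 and 0.0513, against 23 of 38 and 33 of 56 (0.605 and 0.589) in Spen-/- cells. The 95% Wilson intervals, which cover counting error only, were 0.0280 to 0.213 and 0.0142 to 0.169 in Wt and 0.447 to 0.744 and 0.459 to 0.708 in Spen-/- cells. The log2 ratio of Cast to 129 reads differed by 4.33 ± 1.19 (unadjusted p = 0.00283, adjusted p = 0.0723 with edgeR over 7679 genes, 0.0134 with DESeq2), and the median of 263 X-linked genes differed by 3.88. At day 0 with dox the Wt replicates disagreed, with 2 of 22 and 7 of 14 reads from Cast, against 12 of 25 and 12 of 16 in Spen-/- cells. In the 12 libraries other than Wt with dox the Cast share ranged from 0.480 to 0.750, and the median X-linked gene of the Wt dox libraries was at 0.139 and 0.143 at day 0 and 0.0505 and 0.0290 at day 7.

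The total of Rbbp7 in these Wt day 7 libraries, 1755 and 1999 CPM, overlapped that of day 0 without dox, 1466 and 1833 CPM. Only 479 of the 372831 Rbbp7 reads, 0.128%, were allele-specific, and 0.0738% to 0.224% by library, against 13.0% to 15.3% of all reads, so the share rests on a small part of the transcript. A further limit is a close copy. Gm6382, a processed pseudogene on the X chromosome (142210884 to 142211825), aligned over all of its 942 bases to the Rbbp7 transcript with 27 mismatches (97.1% identity), and had 5.23% to 5.95% as many reads as Rbbp7 in every library. By the counting setting in the study's methods (--nonunique=none), reads that aligned to both places were counted for neither. Whether other reads were assigned to the wrong one was not tested. The near-constant ratio means that the fold changes of Gm6382 were close to those of Rbbp7, for example 1.78 ± 0.26 against 1.76 ± 0.24 on the log2 scale between genotypes at day 7.

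**Figure D4:**
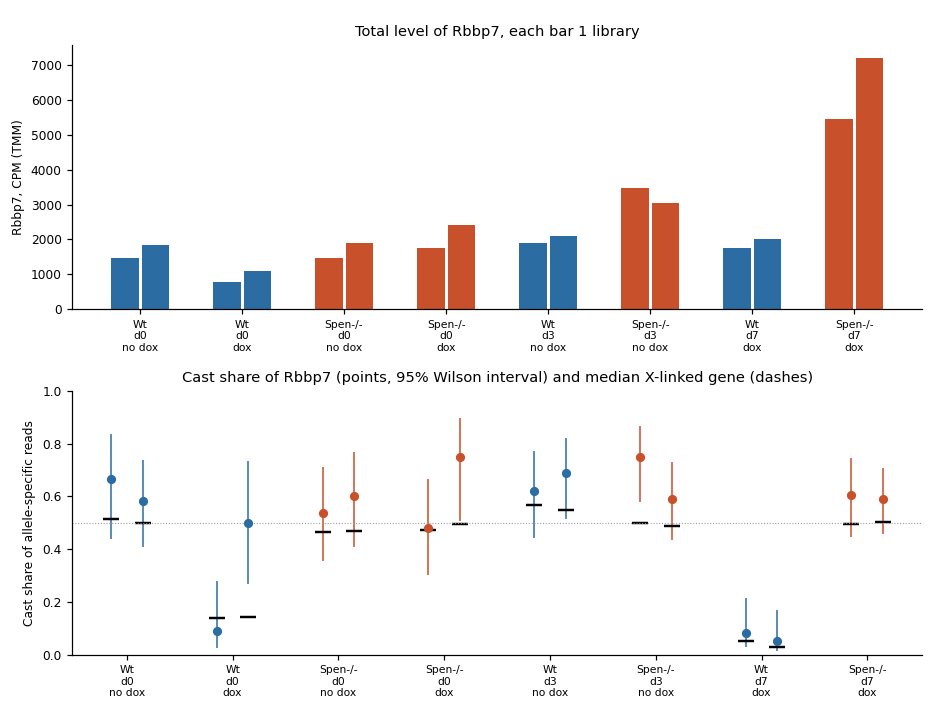
Upper panel, CPM of Rbbp7 in each library (bars). Lower panel, share of its allele-specific reads from Cast with 95% Wilson intervals (points) and the median share of X-linked genes (dashes), blue for Wt and orange for Spen-/-. Both Wt day 7 points lie below 0.1 and both Spen-/- day 7 points near 0.6, and the Wt day 0 dox replicates differ (2 of 22 and 7 of 14 reads).

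Summed over all libraries, the 9 autosomal members had reads from both alleles. No member passed the allelic test in any of 7 comparisons with edgeR, where 0.466% (Wt dox effect), 0.0% (Spen-/- dox effect), 0.163% (difference of these effects), and, between genotypes, 0.0% (day 0), 0.369% (day 0 with dox), 0.0% (day 3) and 2.98% (day 7) of all genes passed. At an unadjusted p under 0.05 there were 2 members at day 7, Rbbp7 and Suz12, and none in the other 6 comparisons, and DESeq2 called Rbbp7 at day 7 alone. Cast reads of Suz12 numbered 25 of 65 and 20 of 52 in Wt (0.385 in both) and 4 of 56 and 8 of 52 in Spen-/- cells (0.0714 and 0.154) at day 7, without overlap (log2 -2.33 ± 0.84, unadjusted p = 0.0149, adjusted p = 0.178 with edgeR). Ezh1 and Phf19 had too few reads in Spen-/- cells at day 7 for this test. The few Ezh1 reads there were all from Cast in replicate 1 (7 of 7) and all from 129 in replicate 2 (0 of 13 from Cast), and Phf19 had 0 and 3 allele-specific reads, the 3 from Cast.

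Phf19 was read mostly from Cast. Over all libraries 712 of 952 allele-specific reads, a share of 0.748, came from Cast, and Cast led in 14 libraries. Wt cells at day 0 without dox already had 87 of 112 and 31 of 37 reads from Cast (0.777 and 0.838). Of 6118 autosomal genes with more than 500 allele-specific reads, 3.63% had a higher Cast share. The lowest share was 0.459, in Spen-/- day 0 dox replicate 2 (17 of 37 reads), and in the other library of that group 26 of 27 reads came from Cast. The other 8 autosomal members had shares of 0.402 (Suz12) to 0.502 (Jarid2).

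Alternative subunits were compared within each library as ratios of CPM per kb. Ezh2 exceeded Ezh1 in every library, by 1.63-fold (Wt day 0 dox replicate 1) to 12.9-fold (Spen-/- day 7 replicate 2). In Spen-/- cells at day 7 the ratios were 9.99 and 12.9, above all other libraries, and in Wt cells 2.85 and 3.49. Rbbp7 exceeded Rbbp4 by 6.02-fold and 12.2-fold in Wt cells at day 0 with dox, 15.4-fold and 15.5-fold without it, 26.5-fold and 23.4-fold at day 7, and 75.4-fold and 106-fold in Spen-/- cells at day 7. Mtf2 exceeded Phf19 by 5.41-fold to 15.7-fold in all libraries but the Spen-/- ones of day 7, where the ratios were 94.7 and 57.5. All 3 ratios were thus highest in Spen-/- cells at day 7, and in each it was the less abundant subunit that had fallen (Ezh1 and Phf19) or the more abundant that had risen (Rbbp7) relative to Wt.

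**Figure D5:**
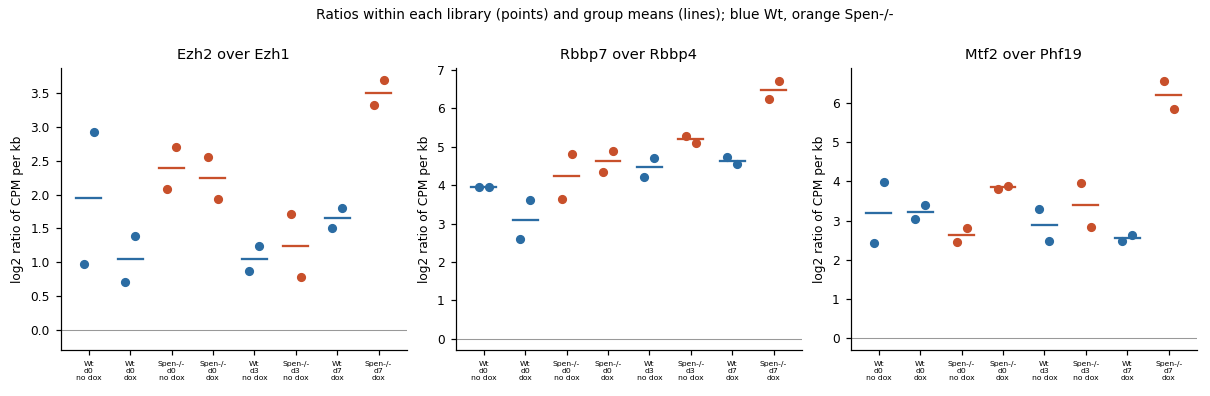
Log2 ratio of CPM per kb of Ezh2 over Ezh1, Rbbp7 over Rbbp4 and Mtf2 over Phf19 within each library (points, lines being group means), blue for Wt and orange for Spen-/-. In each panel the Spen-/- day 7 libraries are the highest, and no ratio falls below 0, where both genes would be equal.

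Some other Polycomb genes were called at day 7. Of 24 PRC1 genes, whose complex ubiquitinates histone H2A, 3 passed in Wt (1 higher, 2 lower) and 4 in Spen-/- cells (2 higher, 2 lower) from day 0 to day 7 with dox, where 4.57% and 8.33% of all genes passed, with medians of 0.01 and -0.15 on the log2 scale against -0.00 and -0.05 over all genes. Over both genotypes 6 of 24 passed at day 7 (2 higher, 4 lower), where 14.4% of all genes did. Phc1, which joins PRC1 complexes, fell from 488 and 353 to 106 and 85.1 CPM in Wt (log2 -2.14 ± 0.25, adjusted p = 5.26e-04 with edgeR) and from 282 and 227 to 92.3 and 74.2 CPM in Spen-/- cells (log2 -1.61 ± 0.25, adjusted p = 0.00297). Cbx7, the main chromobox protein of PRC1 in ESCs, fell from 142 and 107 to 16.9 and 15.0 CPM in Wt (log2 -2.97 ± 0.54, adjusted p = 0.00864 with edgeR). It also passed as lower over both genotypes (log2 -1.98 ± 0.37, adjusted p = 0.00426 with edgeR). Pcgf5 rose in both genotypes (log2 1.58 ± 0.38 and 3.09 ± 0.40, adjusted p = 0.0342 and 0.00114), Pcgf2 fell in Spen-/- cells (-1.91 ± 0.44, adjusted p = 0.0208) and Cbx8 rose there from 0 reads in both libraries to 14.9 and 6.0 CPM (adjusted p = 0.0444). Between genotypes at day 7, where 7.11% of all genes passed, 1 of 24 did, Phc2, with 3.2 and 1.4 CPM in Spen-/- against 35.6 and 18.9 in Wt cells (log2 -3.56 ± 0.69, adjusted p = 0.00852), and its day 7 effect also differed (log2 -4.64 ± 0.92, adjusted p = 0.0241). At day 3 none of the 24 passed in either genotype alone with edgeR, and over both genotypes Pcgf5 rose by 0.98 ± 0.26 (adjusted p = 0.0479), the 1 gene of 24 called where 6.34% of all genes were. Averaged over the 4 conditions, Phc1 was lower in Spen-/- cells (log2 -0.53 ± 0.12, adjusted p = 0.0304 with edgeR). It was the 1 gene of 24 called there, where 4.91% of all genes were.

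Of 5 further PRC2 accessory genes found in the files, Epop, which binds PRC2 in ESCs, was the only one to pass. Epop went from 134.7 and 57.9 to 11.8 and 19.6 CPM in Spen-/- cells by day 7 (log2 -2.61 ± 0.50, adjusted p = 0.00871 with edgeR), where 8.33% of all genes passed. It also passed as lower at day 7 over both genotypes (log2 -2.085 ± 0.349, adjusted p = 0.00231 with edgeR), where 14.4% of all genes passed. At day 3 over both genotypes, where 6.34% of all genes passed, it fell by 1.94 ± 0.35 (adjusted p = 0.00713 with edgeR). Both H3K27 demethylase genes tested, Kdm6a and Kdm6b, fell in that same comparison by 1.29 ± 0.24 and 1.19 ± 0.30 (adjusted p = 0.00797 and 0.0386 with edgeR). At day 7 over both genotypes, where 14.4% of all genes passed, Kdm6b rose by 1.26 ± 0.30 (adjusted p = 0.0166 with edgeR). Of 4 genes for other enzymes of H3K27 and H2AK119, Bap1 rose at day 3 over both genotypes (1.45 ± 0.39, adjusted p = 0.0479 with edgeR), where 6.34% of all genes passed. Over the 4 conditions, where 4.91% of all genes passed, Bap1 was lower in Spen-/- cells (-1.08 ± 0.27, adjusted p = 0.0432 with edgeR).

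Of 17 genes from the other complexes that contain RBBP4 or RBBP7, 1 passed in Wt and 4 in Spen-/- cells from day 0 to day 7, and 2 between genotypes at day 7. Over all genes 4.57%, 8.33% and 7.11% passed in these comparisons, and the counts in Wt and between genotypes were near those shares. At day 7 over both genotypes 6 of 17 passed (2 higher, 4 lower), where 14.4% of all genes did. Sap30, of the SIN3 complex, fell in Wt cells from 108.6 and 44.3 to 7.2 and 10.9 CPM (log2 -3.08 ± 0.51, adjusted p = 0.00440 with edgeR). It also passed as lower over both genotypes (log2 -1.92 ± 0.35, adjusted p = 0.00348 with edgeR). In Spen-/- cells Sin3b and Mta3 rose (1.65 ± 0.31 and 0.86 ± 0.23) and Hdac2 and Chaf1a fell (-1.92 ± 0.46 and -1.53 ± 0.40). Hat1, which encodes the histone acetyltransferase that works with RBBP7, had 1113 and 1291 CPM in Spen-/- and 338 and 403 in Wt cells at day 7 (log2 1.70 ± 0.21, adjusted p = 6.57e-04), a difference in the direction of that of Rbbp7, and Chd3 was lower (log2 -4.90, adjusted p = 0.0189). The list as a whole had a median of -0.21 in that comparison.

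Across the 16 libraries the genes whose log2 CPM was most like that of Ezh2, among 9224 genes with a mean of at least 10 CPM, included Lsm14a (Pearson r = 0.909), Camk1d (0.908), Ccdc85c (0.878) and Kpnb1 (0.876). Suz12 came next among the members at rank 8 (0.867), followed by Mtf2 (0.762), whereas Ezh1 had an r of 0.01. Those most like Ezh1 were Chtf18 (0.948), Ppm1l (0.940), Atxn2l (0.938), Anp32e (0.930) and Chaf1a (0.930), and its closest member was Phf19 (0.854, rank 88). Those most like Rbbp7 were Gm6382 (0.998), the copy described above, Htatsf1 (0.948), Bex3 (0.943), Ubxn4 (0.942) and C330018D20Rik (0.933), of which the first 3 are X-linked. These are descriptions over 16 libraries that share conditions and, at day 7 in Spen-/- cells, the low number of genes detected.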

How the data were processed

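Smart-seq2 libraries had been made from small amounts of total RNA and sequenced as single-end reads of 50 bases. Per the labels and the study's methods, the authors aligned reads with HISAT2 2.2.1 to the mouse genome (mm10) masked at 129/Sv and Cast/Ei variants, split them by allele with SNPsplit and counted them on Ensembl genes with HTSeq 0.12.4. The counting settings were --nonunique=none and -m intersection-nonempty. The deposited values are raw counts per gene, in total and per allele. Whether reads were counted by strand and whether duplicates were removed was not given in the sources used here.

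Gene names came from GENCODE release M21. Genes were kept by edgeR's filterByExpr (minimum count 10, minimum total 15) and scaled by TMM, and 1 quasi-likelihood model with 8 groups was fitted to 16 libraries (edgeR 4.0.16), with Benjamini-Hochberg adjustment over all genes tested and a threshold of 0.05. With 2 libraries a group no exact test can pass, so the spread was pooled over the groups. Allelic counts were fitted with a library term and allele by group terms, over genes whose allele-specific reads exceeded 20 in every group compared. CPM values are TMM scaled, and CPM per kb used the union of exons. Intervals of allelic shares are Wilson intervals at 95% and cover counting error only, since reads carried no molecular identifiers. The fits were tested on simulated counts with known changes for Spen-/- against Wt at day 7. In total counts 21% of genes changed 4-fold and 47% of genes changed 16-fold were called. In allelic counts 19% and 55% were called. A member that did not pass is therefore not shown to be unchanged. Named were all 10 members, the listed Polycomb genes that passed, and the 5 genes most correlated with Ezh2, Ezh1 and Rbbp7, of which 1 is not reported here. The members and lists were chosen with earlier results of these data known. Alternatives were DESeq2 1.42.0, no filter, a replicate block, thinning to 7571566 reads, fitting only the compared libraries and leaving out each library.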

Additional observations from a re-analysis of the deposited data

How the results depend on the processing

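No call of a member changed its direction in any alternative. The calls were picked in these same libraries, so this adds little support, and most of them did not pass in every alternative. Of the 201 member values that did not pass, 90 changed sign in at least 1 alternative, so the direction of an uncalled value is less certain. Of 27 member values that passed, all 27 passed with DESeq2, without the filter on low counts and after thinning every library to the same number of reads on genes, and 26 with a replicate block, where Jarid2 in Spen-/- cells at day 3 did not (adjusted p = 0.0577 with edgeR). Fitted on only the compared libraries, 9 of 25 passed, and the members called numbered 0 at day 3 in Wt and in Spen-/- cells, 1 at day 7 in Wt and 0 in Spen-/- cells, 0 between genotypes at day 7 and 3 at day 7 over both genotypes. Fewer libraries enter those fits. The fit of 16 libraries pools the spread over groups whose replicates differed unequally. The correlation of log2 CPM was 0.873 in Spen-/- day 7 and 0.976 in Wt day 7. The p-values of comparisons with Spen-/- day 7 may therefore be too small, which was not tested. With DESeq2 the members called were 6 at day 3 in Spen-/- cells, 1 for dox in Wt, 1 between genotypes at day 0 with dox, 4 over the 4 conditions, 8 at day 3 over both genotypes, 1 for the day 7 effect between genotypes and 1 in the allelic test at day 7. Without the filter they were 5 at day 3 in Spen-/- cells, and 1 each for dox in Wt, genotype at day 0 with dox, and the day 7 and dox effects between genotypes. The cause was not tested. Leaving out the day 7 libraries, chosen after seeing the data, gave 0 over the conditions before day 7. Without 1 library the members called ranged from 0 to 3 at day 3 and 0 to 2 at day 7 in Wt, were 0 at day 3 and 2 to 3 at day 7 in Spen-/- cells, and ranged from 2 to 4 between genotypes at day 7, 2 to 3 over the 4 conditions, 3 to 5 at day 3 and 2 to 5 at day 7 over both genotypes, and 0 to 1 for the day 7 effect between genotypes. With the longest transcript as length, the log2 ratio of Rbbp7 over Rbbp4 in Wt cells at day 0 without dox was 3.42 in place of 3.95.

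The replicate numbers were not taken to pair the libraries, since not every pair of groups correlated over 0.1. The deviations of same-numbered libraries correlated from -0.150 to 0.291 over 28 pairs of groups (median 0.0298), and 7 were over 0.1, among them all 6 pairs of Wt day 0 without dox, Wt day 0 with dox, Spen-/- day 0 without dox and Wt day 7. With a replicate block the members called were 2 at day 3 in Spen-/- cells and 1 between genotypes at day 0 with dox. For Spen-/- day 3 against day 0 the correlation was -0.110, and crossing the numbers, chosen after seeing the data, gave 4 members. Depth limits the allelic values of Rbbp7, with 14 to 56 allele-specific reads per library, and of Phf19 and Ezh1 in Spen-/- cells at day 7.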
